A study of Mus musculus with 24 samples.

Results

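The 10 genes described here are standard markers of GABAergic interneurons, the inhibitory nerve cells of the hippocampus: Gad1, Gad2, Slc32a1, Lhx6, Sst, Pvalb, Vip, Npy, Cck and Calb2. They were taken by symbol, through the RefSeq accession of each array probe. No value entered that matching, but the markers were chosen with earlier results of these data known. They are 10 of 35259 features tested, and 12 of 56605 probes on the array match them. All 10 genes had a probe well above background on 24 of 24 arrays. The study measured hippocampal RNA of 24 male mice, 1 Agilent single-colour array for each mouse. The WT_CTR (n = 4) and WT_WASHOUT (n = 5) animals lacked both transgenes, and the labels give them the same strain name as the transgenic animals. Both transgenes were present in the 3 APP-PS1_CTR, 4 APP-PS1_UA, 3 APP-PS1_WASHOUT and 5 APP-PS1_UA-WASHOUT animals. Mice of this line are known to carry both transgenes under a prion promoter and to deposit amyloid in the brain. APP-PS1_UA and APP-PS1_UA-WASHOUT received urolithin A, a gut bacterial metabolite, by daily gavage between 2 and 7 months, while the other groups received water. The 3 washout groups were collected after a further 1 month without gavage. The series' design text gives a dose of 20 mg/kg/day where the samples' own protocol has 200. The sources give the age as 8 months, or 9 months after washout, in the sample labels, and as 7 months, with washout 1 month later, in the design text.

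GABAergic interneurons make GABA from glutamate with 2 glutamate decarboxylases, encoded by Gad1 and Gad2, and load it into synaptic vesicles with the transporter encoded by Slc32a1. Interneurons born in the medial ganglionic eminence depend on the transcription factor Lhx6, and many of them contain somatostatin (Sst) or parvalbumin (Pvalb). Interneurons from the caudal ganglionic eminence more often contain vasoactive intestinal peptide (Vip), cholecystokinin (Cck) or calretinin (Calb2), and neuropeptide Y (Npy) occurs in several classes. Some of the markers are not exclusive to interneurons in the hippocampus, since pyramidal cells also express Cck, and granule or mossy cells can express Calb2. In a homogenate of whole tissue, fewer interneurons and less RNA in each interneuron cannot be told apart.

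The promoter windows of 5 genes are shown because 3 of them (Sst, Gad1 and Lhx6) carried the differences below and the other two (Gad2 and Slc32a1) varied together among animals. Each runs from 250 bases before to 50 bases after an annotated start, 5′ to 3′ along the gene, from RefSeq on GRCm38.p6, and 9 of the 10 genes matched an entry. Lhx6 has 3 such windows, of which the furthest upstream is shown. Capitals mark TGACG, a core of the cAMP response element, and TATAAA, searched on both strands.
Sst, chr16:23890795-23891094, minus strand: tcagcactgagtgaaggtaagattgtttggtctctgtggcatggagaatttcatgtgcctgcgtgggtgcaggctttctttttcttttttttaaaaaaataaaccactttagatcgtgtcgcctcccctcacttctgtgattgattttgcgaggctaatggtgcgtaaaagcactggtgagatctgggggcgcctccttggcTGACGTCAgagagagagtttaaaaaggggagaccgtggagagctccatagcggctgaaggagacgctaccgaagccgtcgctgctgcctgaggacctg
Gad1, chr2:70561879-70562178, plus strand: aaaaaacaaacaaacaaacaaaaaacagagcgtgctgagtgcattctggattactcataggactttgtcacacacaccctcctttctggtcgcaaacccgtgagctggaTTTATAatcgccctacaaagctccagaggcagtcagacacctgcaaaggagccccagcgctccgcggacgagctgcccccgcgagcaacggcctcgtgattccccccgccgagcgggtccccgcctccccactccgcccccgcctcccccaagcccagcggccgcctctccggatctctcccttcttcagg
Lhx6, chr2:36105359-36105658, minus strand: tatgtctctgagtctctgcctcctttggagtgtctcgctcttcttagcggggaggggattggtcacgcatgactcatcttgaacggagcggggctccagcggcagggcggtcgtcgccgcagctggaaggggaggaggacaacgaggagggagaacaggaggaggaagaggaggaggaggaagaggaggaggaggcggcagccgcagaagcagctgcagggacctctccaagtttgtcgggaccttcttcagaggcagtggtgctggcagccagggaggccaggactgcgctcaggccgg
Gad2, chr2:22622077-22622376, plus strand: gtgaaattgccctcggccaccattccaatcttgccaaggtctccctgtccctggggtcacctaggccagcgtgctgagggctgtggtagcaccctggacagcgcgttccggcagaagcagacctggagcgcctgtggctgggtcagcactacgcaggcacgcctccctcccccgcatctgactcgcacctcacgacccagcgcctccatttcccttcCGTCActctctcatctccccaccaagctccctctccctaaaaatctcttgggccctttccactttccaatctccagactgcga
Slc32a1, chr2:158610508-158610807, plus strand: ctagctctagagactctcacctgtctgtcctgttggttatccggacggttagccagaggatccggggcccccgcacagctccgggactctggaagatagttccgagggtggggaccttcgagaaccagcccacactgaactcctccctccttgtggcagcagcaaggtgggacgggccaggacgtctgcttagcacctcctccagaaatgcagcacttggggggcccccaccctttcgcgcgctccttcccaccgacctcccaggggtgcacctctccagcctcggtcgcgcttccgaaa
The whole palindrome TGACGTCA, which contains TGACG on both strands, was found in Sst alone among the 9 genes, starting 48 bases before the start. It occurred in 1.79% of 32851 windows of the same length. TGACG occurred in 20.8% of all windows and in those of Cck, Gad2, Sst and Vip. TATAAA occurred in 13.6% of all windows and in those of Gad1, Vip and a second Lhx6 window. These were 3 of 9 motifs searched. A match is a description of the letters and not evidence of binding.

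The arrays lay on 3 slides of 8, each scanned separately. The WT_CTR and APP-PS1_CTR arrays shared slide 1 with 1 APP-PS1_UA array (replicate 1). The WT_CTR arrays filled row 1 of that slide and the APP-PS1_CTR arrays lay in row 2. Array row and genotype therefore coincide in the comparison of these groups. The WT_WASHOUT arrays shared slide 2 with 3 APP-PS1_UA arrays. The 2 transgenic washout groups made up slide 3. Every comparison of a transgenic washout group with WT_WASHOUT therefore set slide 3 against slide 2, and slide and group cannot be told apart there. On slide 3 the APP-PS1_WASHOUT arrays lay in row 1 with APP-PS1_UA-WASHOUT replicate 1, and the other APP-PS1_UA-WASHOUT arrays lay in row 2. Principal component 1 took up 47.2% of the variance. Across genes, the correlation between arrays within a group was 0.977 to 0.991, and per array 63.7% to 76.9% of spots exceeded background by the scanner software's flag. That share was 73.8% to 76.9% in APP-PS1_WASHOUT and 63.7% to 74.8% in APP-PS1_UA-WASHOUT, with the 74.8% on the row 1 array. Treatment, array row and this share thus partly coincide on slide 3. The microglial marker level, the mean log2 level over 10 genes, was -0.30 to 0.21 on the non-transgenic arrays and 1.01 to 2.02 on the transgenic arrays, with no overlap. The arrays thus split by genotype label on this level, which does not measure the transgenes. It cannot check the treatment or washout labels within a genotype.

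Levels below are log2 signals relative to the 75th percentile of each array, as mean ± SD, and a difference is between 2 group means on that log2 scale with its standard error (SE) from limma. A gene is said to be called where its p, adjusted by the Benjamini-Hochberg method across the 35259 features, was under 0.05. At the end of treatment 0 of 10 markers were called between APP-PS1_CTR and WT_CTR, where 0.156% of all features were called. The same test called 0 of 10 between APP-PS1_UA and APP-PS1_CTR, where 0% of all features were called and 2588 had an unadjusted p under 0.05. After washout, APP-PS1_WASHOUT differed from WT_WASHOUT in 3 of 10 markers, where 27.6% of all features were called. Lhx6 and Gad1 were lower, a direction called in 7.67% of all features, and Sst was higher, a direction called in 20%. The same 3 genes were called in APP-PS1_UA-WASHOUT against WT_WASHOUT, where 36% of all features were called, 12.4% lower and 23.6% higher. These 2 comparisons share their control arrays. A share of 3 in 10 is close to both backgrounds. Between APP-PS1_UA-WASHOUT and APP-PS1_WASHOUT, which lay on the same slide but mostly in different rows, 0 of 10 were called, where 0.0624% of all features were. No marker was called between APP-PS1_UA and WT_CTR (background 0.0482%) or between WT_WASHOUT and WT_CTR (background 0.017%). At an unadjusted p under 0.05 limma placed 2289 features in APP-PS1_CTR against WT_CTR and 2627 in APP-PS1_UA-WASHOUT against APP-PS1_WASHOUT.

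**Figure D1:**
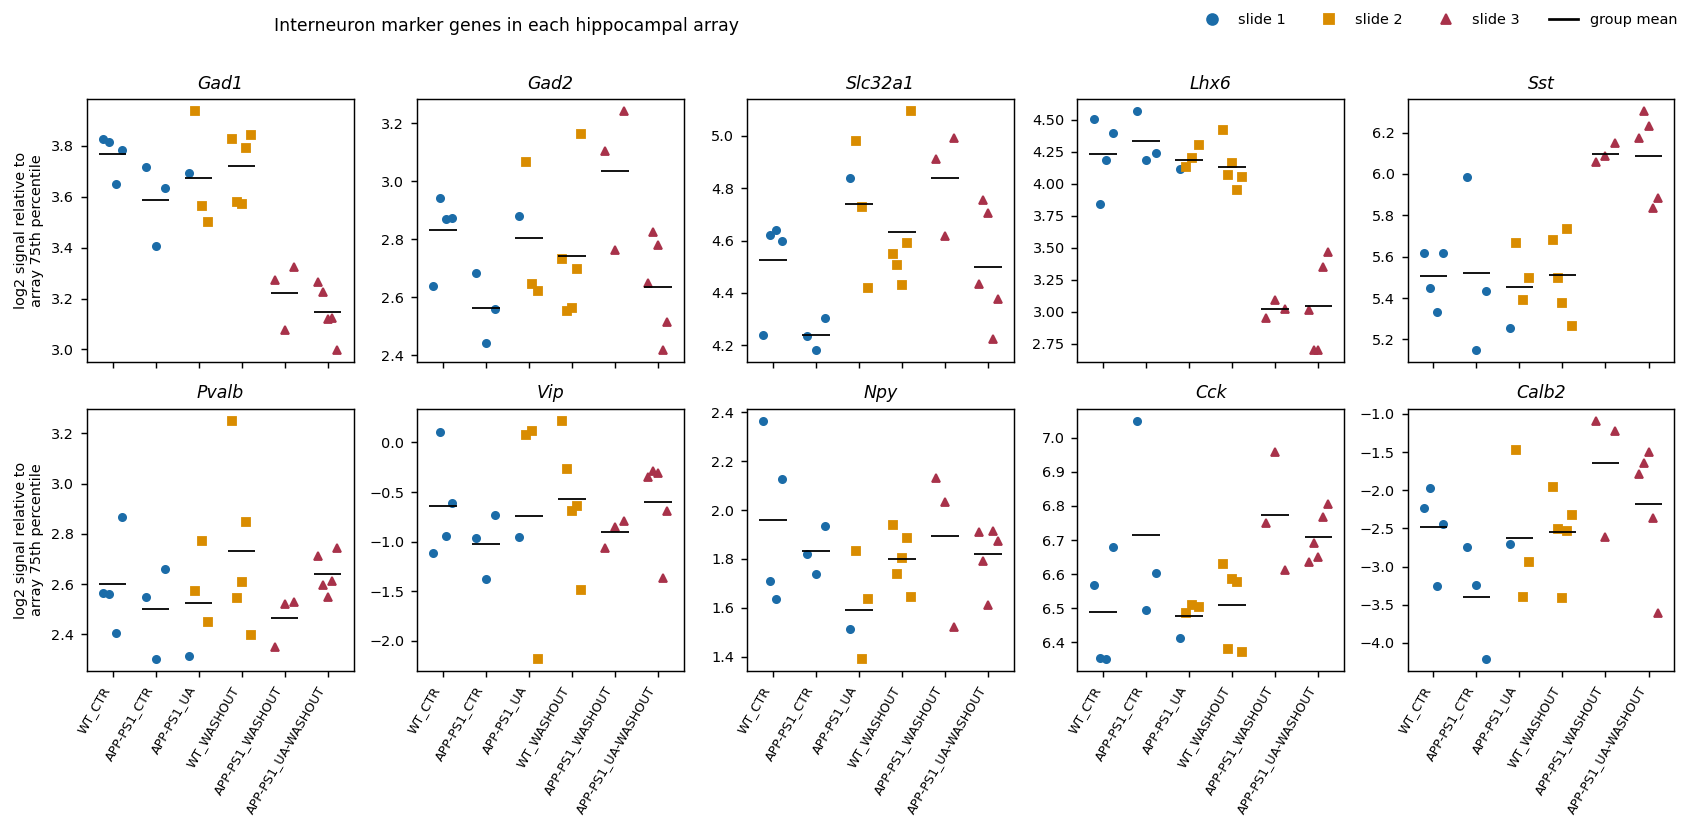
Level of each of the 10 marker genes on each of the 24 arrays, as log2 signal relative to the array's 75th percentile (vertical axes differ between panels), by group; symbols and colours mark the slide and lines the group means. Lhx6 and Gad1 lie lower on all 8 arrays of slide 3 than on the other 16, while the other 8 markers, Sst included, overlap between slide 3 and the rest.

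Gad1 encodes GAD67, the decarboxylase that makes most of the GABA of the brain. Its level was 3.83, 3.82, 3.65 and 3.78 in WT_CTR and 3.72, 3.41 and 3.64 in APP-PS1_CTR. It was 3.69, 3.94, 3.56 and 3.50 in APP-PS1_UA and 3.83, 3.58, 3.57, 3.79 and 3.84 in WT_WASHOUT. It was 3.27, 3.08 and 3.32 in APP-PS1_WASHOUT and 3.27, 3.23, 3.12, 3.12 and 3.00 in APP-PS1_UA-WASHOUT. The highest value of the 2 transgenic washout groups lay below the lowest of the other 4 groups, which overlapped one another. Gad1 was 1.41-fold lower in APP-PS1_WASHOUT (3.22 ± 0.13, n = 3) than in WT_WASHOUT (3.72 ± 0.14, n = 5), a difference of -0.50 (SE 0.11, adjusted p = 0.00147 by limma). In APP-PS1_UA-WASHOUT (3.15 ± 0.10, n = 5) it was lower by -0.58 (SE 0.09, adjusted p = 5.25e-05 by limma). APP-PS1_CTR was at -0.18 against WT_CTR (SE 0.11, 95% interval -0.42 to 0.05, adjusted p = 0.809 by limma). The washout genotype difference minus that at the end of treatment was -0.32 for Gad1 (adjusted p = 0.191 by limma), so the 2 differences were not shown to be unequal.

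Gad2 encodes GAD65, the decarboxylase concentrated at nerve terminals. It ran from 2.64 to 2.94 in WT_CTR and from 2.44 to 2.68 in APP-PS1_CTR. It ran from 2.62 to 3.07 in APP-PS1_UA and from 2.55 to 3.16 in WT_WASHOUT. It ran from 2.76 to 3.24 in APP-PS1_WASHOUT and from 2.42 to 2.82 in APP-PS1_UA-WASHOUT. All 6 groups overlapped at least 1 other, and Gad2 did not pass in any comparison of the study's design. Against WT_WASHOUT it was at 0.30 (SE 0.15, adjusted p = 0.145 by limma) in APP-PS1_WASHOUT, where Gad1 was lower. Leaving out WT_WASHOUT replicate 5, the highest Gad2 value of its group, gave 0.40 (adjusted p = 0.0325), so this array decides that call. Urolithin A animals after washout were at -0.40 against untreated transgenic animals on the same slide, mostly in another row (SE 0.15, unadjusted p = 0.0126, adjusted p = 0.489 by limma).

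Slc32a1 encodes VGAT, the vesicular GABA transporter. APP-PS1_CTR measured 4.24, 4.18 and 4.30, the tightest group, and WT_CTR measured 4.24, 4.62, 4.64 and 4.60. APP-PS1_UA measured 4.84, 4.98, 4.73 and 4.42. All 4 urolithin A arrays lay above all 3 APP-PS1_CTR arrays, the single marker of 10 whose groups did not overlap in this comparison, against 10.9% of all features. The difference was 0.50 (SE 0.17, 1.41-fold, unadjusted p = 0.0067), and it did not pass over all features (adjusted p = 0.654 by limma). On slide 1 alone, where 1 urolithin A array sat beside the controls, it was 0.60. After washout Slc32a1 was 4.91, 4.62 and 4.99 in APP-PS1_WASHOUT, 4.44, 4.75, 4.70, 4.22 and 4.38 in APP-PS1_UA-WASHOUT and 4.55, 4.51, 4.43, 4.59 and 5.09 in WT_WASHOUT. The urolithin A difference was then -0.34 (SE 0.16, adjusted p = 0.654 by limma), with overlapping groups. The change in that difference between the time points was -0.84 (adjusted p = 0.293 by limma; 0.00851% of all features were called in this test and 0 of 10 markers).

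Lhx6 had the largest of the 10 markers' differences from WT_WASHOUT in both transgenic washout groups. The level was 4.50, 3.84, 4.18 and 4.39 in WT_CTR, 4.56, 4.19 and 4.24 in APP-PS1_CTR, and 4.11, 4.13, 4.20 and 4.30 in APP-PS1_UA. It was 4.42, 4.06, 4.16, 3.95 and 4.05 in WT_WASHOUT. It was 2.95, 3.09 and 3.02 in APP-PS1_WASHOUT and 3.01, 2.70, 2.70, 3.35 and 3.46 in APP-PS1_UA-WASHOUT. The first 4 groups overlapped at about the same level, and all 8 arrays of the last 2 groups, which are the arrays of slide 3, lay below them. Lhx6 was 2.16-fold lower in APP-PS1_WASHOUT (3.02 ± 0.07, n = 3) than in WT_WASHOUT (4.13 ± 0.18, n = 5), a difference of -1.11 (SE 0.17, adjusted p = 5.83e-05 by limma). In APP-PS1_UA-WASHOUT (3.04 ± 0.36, n = 5) the difference was -1.08 (SE 0.15, adjusted p = 7.46e-06 by limma), and between the 2 transgenic washout groups it was 0.03 (95% interval -0.33 to 0.38). APP-PS1_CTR differed from WT_CTR by 0.10 (95% interval -0.27 to 0.47). The genotype difference was 1.21 lower after washout than at the end of treatment (-1.21, SE 0.25, adjusted p = 0.00234 by limma), and Lhx6 was the 1 marker of 10 called in this test, against 14.2% of all features called either way and 2.52% called lower. Sst was also called without APP-PS1_CTR replicate 1 (0.80), and Gad2 without WT_WASHOUT replicate 5 (0.67) or APP-PS1_WASHOUT replicate 2 (0.70). This test also sets slide 3 against slides 1 and 2. A second Lhx6 probe, for another transcript accession, was not well above background on any of 24 arrays, so the difference rests on 1 probe.

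Across slides, Lhx6 and Gad1 were the 2 of 10 markers whose 8 slide 3 values lay wholly outside the other 16, against 12.1% of all features. Lhx6 was at most 3.46 on slide 3 and at least 3.84 elsewhere, and Gad1 was at most 3.32 and at least 3.41. In 2 comparisons chosen after the data were seen, the washout transgenic groups were set against the transgenic groups of the end of treatment. The first sets slide 3 against slide 1, and the second sets slide 3 against slides 1 and 2. Slide, age and washout cannot be told apart in either. APP-PS1_WASHOUT differed from APP-PS1_CTR in 6 of 10 markers (background 22.8%), with Lhx6 at -1.31 (adjusted p = 5.33e-05 by limma). Lhx6 kept its call in all 20 alternatives run on the log2 scale. Gad1 (-0.36) lost its call without APP-PS1_CTR 1 or 3 or APP-PS1_WASHOUT 1 or 2 (adjusted p = 0.0543 to 0.144). Gad2 (0.48) lost it without APP-PS1_CTR 1, 2 or 3 or APP-PS1_WASHOUT 1 or 3 (0.0518 to 0.172), and Slc32a1 (0.60) without APP-PS1_CTR 2 or APP-PS1_WASHOUT 1 or 3 (0.058 to 0.0793). Sst (0.57) lost it without APP-PS1_CTR 2 or 3 or APP-PS1_WASHOUT 2 or 3 (0.0561 to 0.155), and Calb2 (1.76) without APP-PS1_CTR 2 or 3 or APP-PS1_WASHOUT 1 or 3 (0.0583 to 0.144). With array row as a block none of these 5 passed (0.0549 to 0.314), and Lhx6 did. Over the 20 alternatives, Gad1 was called in 14, Gad2 in 8, Slc32a1 in 15, Sst in 12 and Calb2 in 14. APP-PS1_UA-WASHOUT differed from APP-PS1_UA in Lhx6 (-1.14), Gad1 (-0.53) and Sst (0.63), 3 of 10 (background 34.5%), and each kept its call in 23 of 23 alternatives.

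Sst encodes somatostatin, the peptide of dendrite-targeting interneurons. The level was 5.62, 5.45, 5.33 and 5.62 in WT_CTR and 5.99, 5.15 and 5.43 in APP-PS1_CTR. It was 5.25, 5.66, 5.39 and 5.49 in APP-PS1_UA and 5.68, 5.50, 5.38, 5.73 and 5.26 in WT_WASHOUT. It was 6.06, 6.09 and 6.15 in APP-PS1_WASHOUT and 6.17, 6.30, 6.23, 5.83 and 5.88 in APP-PS1_UA-WASHOUT. All transgenic washout arrays lay above all WT_WASHOUT arrays. With Lhx6 and Gad1 this made 3 of 10 markers without overlap in APP-PS1_WASHOUT against WT_WASHOUT, where 31% of all features did not overlap. APP-PS1_CTR replicate 1 (5.99) lay below the 3 APP-PS1_WASHOUT arrays and within the range of the APP-PS1_UA-WASHOUT arrays. Sst was higher in APP-PS1_WASHOUT (6.10 ± 0.05, n = 3) than in WT_WASHOUT (5.51 ± 0.20, n = 5), a difference of 0.59 (SE 0.16, adjusted p = 0.0087 by limma). In APP-PS1_UA-WASHOUT it was 0.57 higher (SE 0.14, adjusted p = 0.00247 by limma).

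The Sst call depended on how the arrays were scaled, and those of Lhx6 and Gad1 did not. With quantile normalization Sst was 0.28 in APP-PS1_WASHOUT (adjusted p = 0.119) and 0.27 in APP-PS1_UA-WASHOUT (adjusted p = 0.0678), and neither passed. With array row as a block the first was 0.43 (adjusted p = 0.121). Lhx6 was -1.15 and -1.10 and Gad1 -0.54 and -0.58 with quantile normalization. Bright probes as a class moved the same way: the 669 features with a mean level of at least 5, among which are Sst and Cck, had a median difference of 0.20 in APP-PS1_WASHOUT against WT_WASHOUT as scaled here and -0.08 with quantile normalization. The median over all features was 0.08 as scaled here, -0.03 with the array median and -0.07 with quantile normalization. The share of called features that were higher was 72.2%, 56.7% and 44.3% in that order. Relative to the median of the bright features, Sst was 0.39 with the first scaling and 0.36 with quantile normalization.

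**Figure D2:**
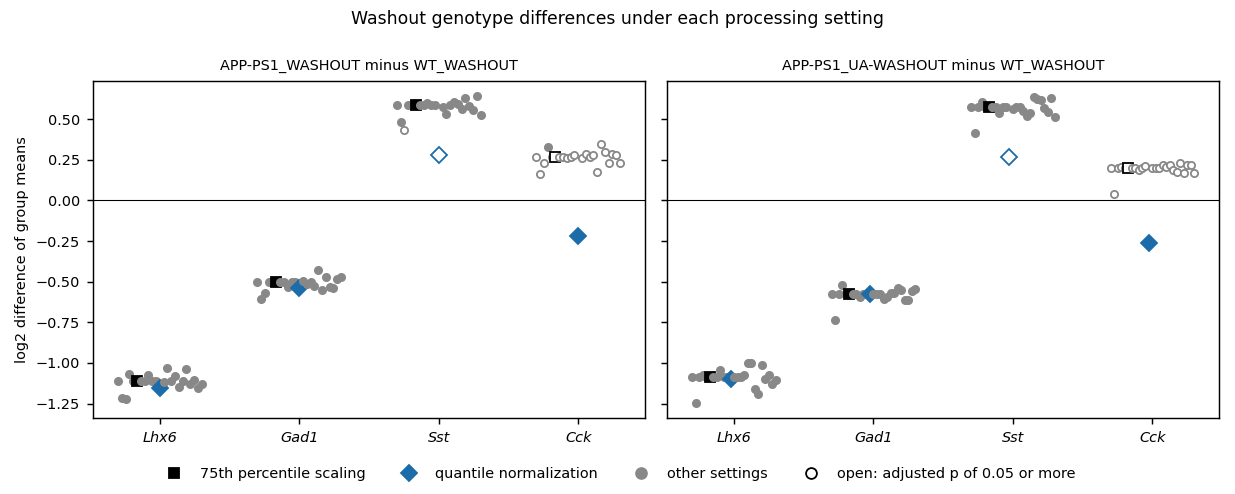
Difference of Lhx6, Gad1, Sst and Cck between each transgenic washout group and WT_WASHOUT (log2 scale) under the 75th percentile scaling (squares), quantile normalization (diamonds) and the other settings except the deposited scores (circles); filled symbols passed an adjusted p under 0.05. Lhx6 and Gad1 stay below 0 and filled throughout. Sst is open with quantile normalization and, for APP-PS1_WASHOUT, also with array row as a block. Cck changes sign with quantile normalization.

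Cck encodes cholecystokinin and was measured by a probe with 10 spots on each array. Its level ran from 6.35 to 6.68 in WT_CTR, 6.49 to 7.05 in APP-PS1_CTR and 6.41 to 6.51 in APP-PS1_UA. It ran from 6.37 to 6.63 in WT_WASHOUT, 6.61 to 6.96 in APP-PS1_WASHOUT and 6.63 to 6.81 in APP-PS1_UA-WASHOUT. All APP-PS1_UA-WASHOUT arrays lay above WT_WASHOUT, making Cck the fourth marker without overlap in that comparison, against 24.7% of all features. The differences were 0.27 (adjusted p = 0.096 by limma) and 0.20 (adjusted p = 0.125 by limma) in the 2 washout comparisons, and neither passed. With quantile normalization both turned to the other side of 0 and passed, at -0.22 (adjusted p = 0.0237) and -0.26 (adjusted p = 0.00207). With array weights the first was 0.33 and passed (adjusted p = 0.0297). With the deposited scores both passed as higher, at 0.12 (adjusted p = 0.0125) and 0.19 (adjusted p = 3.11e-05) on the scale of those scores. No direction is given for Cck for that reason.

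Pvalb encodes the calcium-binding protein of fast-spiking basket cells. It ran from 2.41 to 2.87 in WT_CTR, 2.30 to 2.66 in APP-PS1_CTR, 2.31 to 2.77 in APP-PS1_UA and 2.40 to 3.25 in WT_WASHOUT. After washout it was 2.35, 2.52 and 2.53 in APP-PS1_WASHOUT and 2.71, 2.60, 2.55, 2.61 and 2.74 in APP-PS1_UA-WASHOUT. Those 2 groups did not overlap, the 1 such marker of 10 in this comparison against 5.34% of all features, and the difference was 0.18 (SE 0.15, 95% interval -0.14 to 0.50, adjusted p = 0.863 by limma). APP-PS1_WASHOUT was at -0.26 against WT_WASHOUT (adjusted p = 0.216 by limma), and with array row as a block this was -0.54 and passed (adjusted p = 0.0224).

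Npy, a peptide of several interneuron classes, ran from 1.39 to 2.36 over all 24 arrays. Its group means lay between 1.59 ± 0.19 in APP-PS1_UA (n = 4) and 1.96 ± 0.35 in WT_CTR (n = 4), with overlapping groups in every comparison. Vip, the peptide of interneurons that inhibit other interneurons, ran from -2.19 to 0.22. The spread of Vip within APP-PS1_UA alone (-0.74 ± 1.09, n = 4) exceeded every difference between group means. Neither gene passed in any comparison.

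Calb2 encodes calretinin and had the widest range of the 10 markers, from -4.22 to -1.09. It was -2.74, -3.24 and -4.22 in APP-PS1_CTR and -1.09, -2.61 and -1.22 in APP-PS1_WASHOUT. It was -2.48 ± 0.55 in WT_CTR (n = 4) and -2.55 ± 0.53 in WT_WASHOUT (n = 5). The 2 transgenic groups on water lay on opposite sides of their non-transgenic controls, at -0.92 (SE 0.53, adjusted p = 0.797 by limma) and 0.91 (SE 0.51, adjusted p = 0.199 by limma). The difference between those 2 values was 1.83 and did not pass (SE 0.73, adjusted p = 0.104 by limma). A second Calb2 probe gave -1.14 and 0.71 in the same comparisons.

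**Figure D3:**
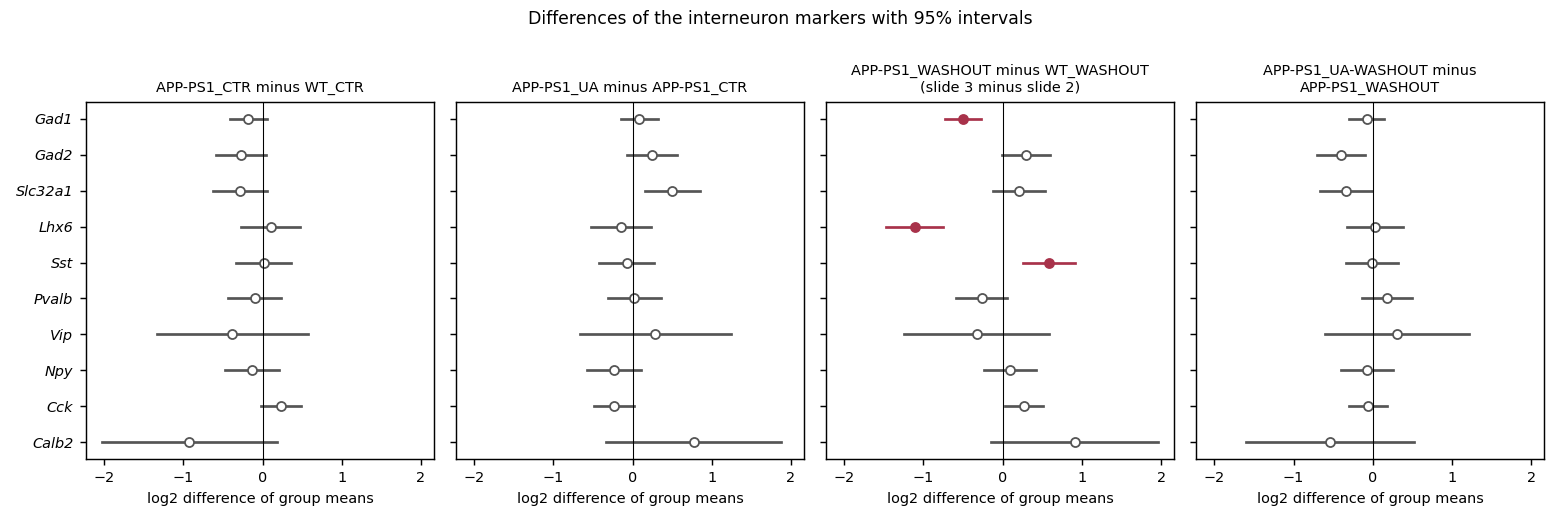
Difference of group means (log2 scale) with its 95% interval for each marker in 4 comparisons; filled symbols passed an adjusted p under 0.05. Lhx6, Gad1 and Sst are filled in the third panel, which sets slide 3 against slide 2, and no symbol is filled in the other three.

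Further genes of the GABAergic system were taken from 4 lists that include the markers. Of 8 genes of GABA synthesis, transport and breakdown, 0 lay above 0 in APP-PS1_CTR against WT_CTR, with a median of -0.21 beside -0.01 over all features, and 0 passed. In APP-PS1_UA against APP-PS1_CTR 7 of the 8 lay above 0, with a median of 0.19 beside -0.02 over all features, and 0 passed. The other GABAergic lists moved in the same direction by their medians, and 0 of their genes passed. In the first comparison the medians were -0.28 for 12 transcription factors (2 above 0) and -0.22 for 21 peptides and subtype markers (4 above 0). For 10 synapse and channel genes the median was -0.03 (5 above 0). In the second they were 0.26 (8 above 0), 0.08 (13) and 0.14 (8) in that order. These 2 comparisons share the APP-PS1_CTR arrays, and in the first array row and genotype coincide. Of 7 striatal markers measured, 2 lay above 0 in the first and 6 in the second, and 0 passed in either. Their mean log2 level was at most -0.85 in APP-PS1_CTR, below all WT_CTR arrays (-0.69 to -0.67), and -1.08 to -0.29 in APP-PS1_UA. Other lists moved the opposite way by their medians, with 0 genes passing. Choroid plexus markers were at 1.82 and then -2.43, hippocampal subfield markers at 0.20 and -0.24, and oligodendrocyte markers at 0.14 and -0.33. Cortical markers (-0.11 and 0.05) and astrocyte markers (-0.03 and 0.12) moved as the GABAergic lists did. The part of the striatal and other lists in the values of the GABA genes was not tested. In APP-PS1_WASHOUT against WT_WASHOUT the call among the 8 was Gad1, and the median was 0.07 beside 0.08 over all features. In that comparison the medians of the other GABAergic lists were 0.02 for transcription factors, 0.07 for peptides and subtype markers, and -0.19 for synapse and channel genes.

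Among 12 interneuron transcription factors, 1 was higher and 2 lower in APP-PS1_WASHOUT than in WT_WASHOUT, 3 of 12 where 27.6% of all features were called. Dlx6, a homeobox factor of the interneuron lineage with a low mean level of -4.50, was 1.16 higher (SE 0.27, adjusted p = 0.00261 by limma). Satb1, which acts in the maturation of medial eminence interneurons, was lower by -0.66 (adjusted p = 0.0216) beside Lhx6. In APP-PS1_UA-WASHOUT against WT_WASHOUT 0 of the 12 were higher and 2 lower, where 36% of all features were called. Neither Dlx6 nor Satb1 was called there. In APP-PS1_UA-WASHOUT Nkx2-1, which specifies the medial eminence lineage, was lower by -1.31 (adjusted p = 0.0445), with a probe well above background on 17 of 24 arrays. Of 21 peptides and subtype markers, Sst was higher and Lamp5, a marker of neurogliaform cells, was lower in both washout comparisons (-0.63, adjusted p = 0.00205, and -0.57, adjusted p = 0.000998), 2 of 21 where 27.6% and 36% of all features were called. Of 10 synapse and channel genes, the fast-spiking potassium channel Kcnc1 was higher in both (0.55 and 0.48, adjusted p = 0.00328 and 0.00207), and gephyrin (Gphn), the scaffold of inhibitory synapses, was lower in APP-PS1_UA-WASHOUT (-0.34, adjusted p = 0.00167). The genotype difference was higher after washout than at the end of treatment for Dlx6 (2.03, adjusted p = 0.0013), Dlx5 (1.09, adjusted p = 0.0209) and Nos1 (1.11, adjusted p = 0.0442). It was lower for Crhbp (-0.55, adjusted p = 0.044) and Gphn (-0.46, adjusted p = 0.0215). In that test 14.2% of all features were called. In all these tests by limma, slide and group cannot be told apart.

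Genes of other marker lists were also called in these washout comparisons, where 20% and 23.6% of all features were called higher and 7.67% and 12.4% lower. Of 14 immediate early genes, which neuronal activity induces, 8 were lower in APP-PS1_WASHOUT and 10 in APP-PS1_UA-WASHOUT. Their mean log2 level per array was 1.05 to 1.29 in WT_WASHOUT, and the means of the other 5 groups ran from 0.02 to 0.25. Of 10 general neuronal genes, 4 were higher and 0 lower in each comparison, among them Snap25 (0.75 and 0.73), and the medians of the list were 0.10 and 0.09 beside 0.08 and 0.05 over all features. Of 10 microglial markers, 8 and 9 were higher, and their mean log2 level, lower in all non-transgenic arrays, was 1.02 to 1.66 in APP-PS1_WASHOUT and 1.24 to 2.02 in APP-PS1_UA-WASHOUT. Of 5 cortical markers measured, which include Lamp5, 2 and 1 were lower, and their mean log2 level was 0.82 to 0.96 in APP-PS1_WASHOUT and 1.24 to 1.62 in WT_WASHOUT. Of 7 thalamic markers, 1 was higher and 0 lower in each comparison, with medians of 0.72 and 0.04. The mean log2 level of the thalamic markers was 0.94 on APP-PS1_WASHOUT replicate 3 and -1.03 to -0.33 on all other arrays. Replicate 3 of APP-PS1_WASHOUT also had the highest Gad2 value of all arrays (3.24). The part of these lists in the Lhx6, Gad1 and Sst differences was not tested.

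Within groups, the markers varied together in part. After each group's mean was subtracted, Gad2 and Slc32a1 correlated at r = 0.93 over 24 animals (rho = 0.93, permutation p = 1e-05, the smallest that 100000 resamples can give, adjusted 0.00045 over 45 pairs). The correlation was 0.82, 0.94 and 0.96 on slides 1, 2 and 3, and 0.90 without the 2 animals farthest from the median of Gad2. Gad1 and Gad2 correlated less closely (r = 0.72, rho = 0.63, permutation p = 7e-05 and 0.00106, adjusted 0.00105 and 0.00954), at 0.37, 0.83 and 0.73 by slide and 0.68 without the 2 farthest animals. Lhx6 ran opposite to Slc32a1 (r = -0.57, rho = -0.62, permutation p = 0.00326 and 0.00136, adjusted 0.0244 and 0.0102), at -0.55, -0.40 and -0.82 by slide. The shuffles treated the 24 deviations as freely exchangeable, though subtracting group means ties those of a group together. All these permutation p-values are therefore too small, and pairs near the threshold may not pass. The relation of Lhx6 to Slc32a1 is thus given as a description. By these p-values 13 of the 45 pairs passed an adjusted p under 0.05 for r, a count that is likely too high for the same reason. Sst and Cck (r = 0.55, adjusted permutation p = 0.0305) fell to 0.24 without the 2 farthest animals, so that relation rests on APP-PS1_CTR replicates 1 and 2.

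**Figure D4:**
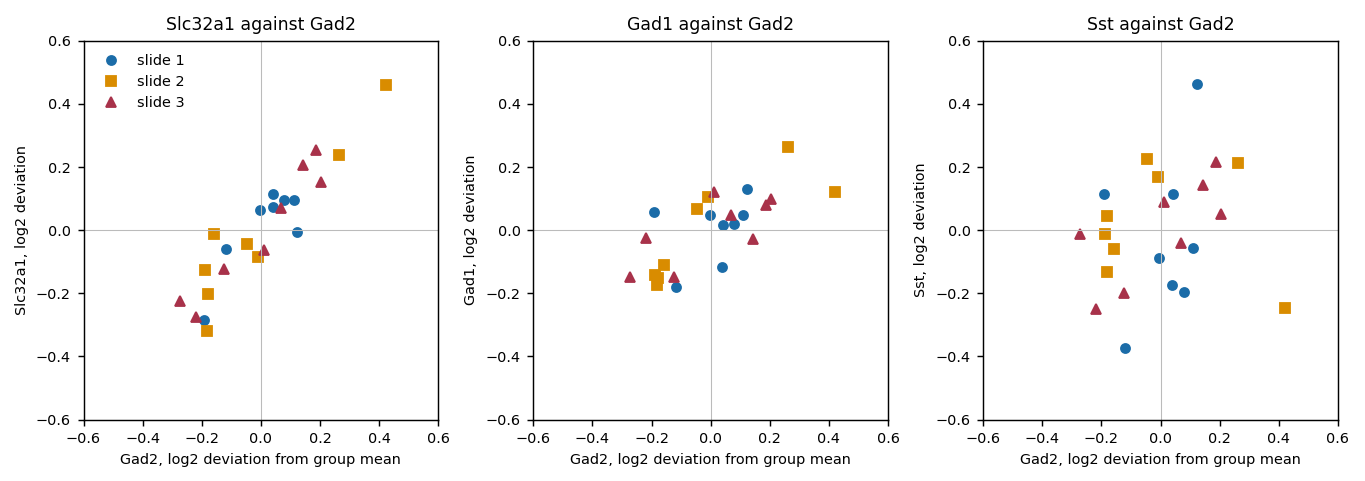
Deviation of each of 24 animals from its group mean (log2 scale) for Slc32a1, Gad1 and Sst against Gad2, with the slide marked by symbol and colour. Slc32a1 follows Gad2 closely on all 3 slides (r = 0.93), Gad1 less so (r = 0.72), and Sst is widely scattered.

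As a description, the genes whose deviations over the 24 arrays were most like those of Gad1 were Kcnip1 (r = 0.91), Zfp275 (0.87) and Dlx2 (0.85). Those most like Sst were Prkar1b (0.91), Agpat1 (0.90) and Tma7 (0.89). Those most like Lhx6 were Snap23, Pdzrn3 and Oprm1 (each 0.96). The arrays share slides, and no test was made of these likenesses.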

How the data were processed

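Hippocampal RNA of 24 mice was measured on 24 single-colour arrays. Per the file headers the authors extracted linear spot intensities using Agilent's Feature Extraction software, version 12.0.3.1, which subtracted background without scaling arrays to each other. Their deposited value matrix contains a score: the log signal standardized over the spots of an array, tested to within 0.005. Standardizing makes the score the same for any log base, and its column medians ran from -0.17 to -0.06. From the processed signal, flagged outlier spots were dropped, log2 values of repeated spots were averaged, and the 75th percentile of the array (1285 to 2292) was subtracted. A probe was kept if well above background on at least 3 arrays with at least 2 values in each group (43988 of 56605), and a gene was its brightest kept probe. No spot was saturated (0), and the number of arrays limits the precision.

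One model of 6 group means was fitted to all arrays with limma 3.58.1 in R 4.3.3 and Benjamini-Hochberg adjustment. It was tested on simulated data. P-values measure the spread between animals, not between slides. All 10 markers are named in every comparison, with each called gene of the 4 GABAergic lists up to 8 by adjusted p, and the 3 genes most like Gad1, Sst and Lhx6. The markers and lists were chosen with earlier results of these data known. The alternatives were other scalings, filters, probe rules, spread models, slide, array row and replicate blocks, the score, and leaving out each array. Since the files give median and not mean spot signals, normexp (offset 50) used the median ones. Replicate numbers were not used to pair the animals in the main model. Deviations of same-numbered arrays of different groups correlated at 0.016 on average over 52 pairs, from -0.27 to 0.32. For differently numbered arrays the average was -0.004 over 186 pairs, from -0.42 to 0.47. Averages near 0 cannot exclude a pairing.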

Additional observations from a re-analysis of the deposited data

Results flagged for a closer look

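Slc32a1 in WT_CTR replicate 1 was 4.24, and the nearest of the other 3 arrays of that group was 4.60. Slc32a1 in WT_WASHOUT replicate 5 was 5.09, and the nearest of the other 4 was 4.59. Each stood farther from its group than Dixon's 95% limit allows. Over the 40 sets of a gene and a group examined, 2 such values are expected by chance and 2 were found. For Lhx6 the genotype difference after washout and at the end of treatment differed, by -1.21 in a test of that difference. The 3 APP-PS1_WASHOUT arrays lay on a slide apart from the other 3 groups in this test.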

How the results depend on the processing

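For the 9 comparisons, the count of called markers stayed within 1.5 times its value under every alternative run, except the change of the genotype difference between time points. That count was 1 (Lhx6), 2 with the deposited scores, 3 with array weights, and 1 to 2 with any 1 array left out. With 1 array left out the counts were 3 to 4 for APP-PS1_WASHOUT against WT_WASHOUT and 3 for APP-PS1_UA-WASHOUT against WT_WASHOUT. The higher counts with 1 array left out came from Sst without APP-PS1_CTR replicate 1 (0.80) and from Gad2 without WT_WASHOUT replicate 5 (0.67) or APP-PS1_WASHOUT replicate 2 (0.70). An equal count can hold different genes. With quantile normalization the 3 called in each washout group against WT_WASHOUT were Gad1, Lhx6 and Cck, all lower, and Sst was not called. With array row as a block Pvalb was called and Sst was not in APP-PS1_WASHOUT against WT_WASHOUT. Among 2830 values of single markers under alternatives, 2586 kept direction and side of the threshold, 42 lost a call, 14 gained one, 184 changed sign with no call on either side, and 4 reversed. The 4 were Cck with quantile normalization: -0.22 in APP-PS1_WASHOUT and -0.26 in APP-PS1_UA-WASHOUT against WT_WASHOUT, and -0.31 and -0.22 in those groups against APP-PS1_CTR and APP-PS1_UA. The cause was not tested. Over all features, calls ran from 5806 to 12330 (9741) in APP-PS1_WASHOUT against WT_WASHOUT, from 9549 to 21637 (12681) in APP-PS1_UA-WASHOUT, and from 758 with an array row block to 7906 with array weights (4997) in the change between time points. In the other comparisons the calls over all features ran from 4 to 159 (55) in APP-PS1_CTR against WT_CTR, 0 to 11 (0) in APP-PS1_UA against APP-PS1_CTR, 0 to 2964 (22) in APP-PS1_UA-WASHOUT against APP-PS1_WASHOUT, 4 to 30 (17) in APP-PS1_UA against WT_CTR, 0 to 76 (6) in WT_WASHOUT against WT_CTR and 0 to 37 (3) in the change of the urolithin A difference. The count of 2964 came without the filter on dim probes. The replicate block changed no count of called markers, which was 3 and 3 in the washout groups against WT_WASHOUT and 1 in the change of the genotype difference between time points. A fixed slide block, alone or with array row, and fits within a slide gave no value for these 3 comparisons, since slide and group coincide. Within-slide fits gave none for WT_WASHOUT against WT_CTR or the change in the urolithin A difference.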
